A study of Mus musculus with 10 samples.

Results

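The regions described here are stretches of open chromatin that were far more accessible in iNKT2 than in iNKT1 cells of the mouse thymus and that stayed at about the same level in iNKT2 cells of SKG mice. They are called kept regions below. They were chosen by their measured values: in CPM, the insertions of a region scaled by library total and edgeR's TMM factor, with 0.5 added to each group mean, the iNKT2 mean had to be at least 4 times the iNKT1 mean in BALB/c and again in SKG mice, and the SKG iNKT2 mean had to lie between 0.67 and 1.5 times the BALB/c iNKT2 mean. Of 94823 regions in the table, 1436 (1.51%) met all 3 limits.

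The libraries came from ATAC-seq, in which a transposase cuts open chromatin and inserts sequencing adapters, so that the number of insertions in a region measures its accessibility. The cells were thymic invariant NKT cells, labelled NKT1 or NKT2. One genotype was wild type BALB/c mice, with normal Zap70. The other was SKG mice, in which a hypomorphic Zap70 allele on the same BALB/c background weakens signals from the T cell receptor. There were 2 iNKT1 and 3 iNKT2 libraries of each genotype, with between 14988590 and 36342635 insertions in regions, and 1 insertion was worth 0.0299 to 0.0642 CPM in the iNKT1 libraries. By the study's methods, iNKT1 cells were sorted as CD27+ CD122+ and iNKT2 cells as CD27+ CD122- from adult mice, iNKT17 cells were not profiled, and the sources used here do not say whether a library pooled mice or whether replicates came from separate mice, so that p-values measure only the spread between these libraries. The SKG allele is carried in the germ line, so every cell of those mice has it. In such bulk libraries a change in the share of cells with an open region and a change in how open it is in each cell cannot be told apart. The Tbx21 start, which marks iNKT1 cells, held 10.2 and 7.54 CPM in the BALB/c iNKT1 libraries, 13.3 and 10.6 in the SKG iNKT1 libraries, and 1.79 to 4.16 in the 6 iNKT2 libraries.

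Invariant NKT cells are T cells with a nearly fixed receptor that recognizes lipids on CD1d. In the thymus they mature into subsets that resemble helper T cells: iNKT1 cells depend on T-bet and make interferon-gamma, iNKT2 cells hold high PLZF and make IL-4, and iNKT17 cells make IL-17. T cell receptor signals reach the nucleus through NFAT, AP-1, NF-kB and Egr factors, while GATA3, TCF-1 and LEF-1, Runx and ROR factors bind many enhancers of the T lineage without being direct relays of that signal.

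Sequences of kept regions are shown first, to set those with the string of ROR factors beside regions of the opposite behaviour. The central 300 bases are given on the plus strand of the GRCm38 reference (mm10), which is the C57BL/6J genome and not that of the BALB/c mice. Capitals mark matches on either strand to the ROR string TAGGTCA, the TCF/LEF strings CTTTGAA and CTTTGAT, the GATA strings AGATAA and also AGATAG, with TGATAA and also TGATAG, and the NFAT string TGGAAAA. The kept regions lay in an intron of Il1r1 (chr1:40243494-40243793), in an intron of Il23r (chr6:67483111-67483410), 29051 bp downstream of the Il17a start (chr1:20759807-20760106), 6105 bp upstream of the Il7r start (chr15:9536132-9536431), 68236 bp downstream of the Myb start (chr10:21092599-21092898) and 68794 bp upstream of the Cd44 start (chr2:102970310-102970609). The Il23r region was picked after its values were seen, as the most accessible kept region at that gene with the ROR string outside the start. The other 5 were the most accessible kept regions of their genes.
Il1r1: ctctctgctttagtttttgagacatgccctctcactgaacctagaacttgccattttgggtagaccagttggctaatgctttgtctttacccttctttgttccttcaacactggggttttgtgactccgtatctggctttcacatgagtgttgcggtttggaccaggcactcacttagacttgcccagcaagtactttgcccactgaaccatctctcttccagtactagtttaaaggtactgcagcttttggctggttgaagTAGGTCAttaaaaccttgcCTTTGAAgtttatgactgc
Il23r: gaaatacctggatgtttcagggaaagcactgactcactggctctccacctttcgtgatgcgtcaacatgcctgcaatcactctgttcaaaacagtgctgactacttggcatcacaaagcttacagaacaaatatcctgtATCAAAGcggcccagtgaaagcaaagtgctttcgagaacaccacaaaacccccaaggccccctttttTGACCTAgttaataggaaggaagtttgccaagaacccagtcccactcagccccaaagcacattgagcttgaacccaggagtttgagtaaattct
Il17a: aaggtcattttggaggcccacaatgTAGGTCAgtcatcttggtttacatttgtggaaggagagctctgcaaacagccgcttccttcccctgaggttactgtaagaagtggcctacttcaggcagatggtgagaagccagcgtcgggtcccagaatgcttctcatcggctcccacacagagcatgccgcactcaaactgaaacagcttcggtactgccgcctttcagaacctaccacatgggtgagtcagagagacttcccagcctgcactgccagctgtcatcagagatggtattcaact
Il7r: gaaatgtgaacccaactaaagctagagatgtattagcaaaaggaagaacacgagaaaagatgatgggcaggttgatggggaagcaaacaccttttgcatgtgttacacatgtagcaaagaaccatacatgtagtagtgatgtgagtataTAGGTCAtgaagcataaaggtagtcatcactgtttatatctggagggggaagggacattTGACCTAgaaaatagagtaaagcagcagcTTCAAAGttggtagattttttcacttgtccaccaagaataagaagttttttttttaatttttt
Myb: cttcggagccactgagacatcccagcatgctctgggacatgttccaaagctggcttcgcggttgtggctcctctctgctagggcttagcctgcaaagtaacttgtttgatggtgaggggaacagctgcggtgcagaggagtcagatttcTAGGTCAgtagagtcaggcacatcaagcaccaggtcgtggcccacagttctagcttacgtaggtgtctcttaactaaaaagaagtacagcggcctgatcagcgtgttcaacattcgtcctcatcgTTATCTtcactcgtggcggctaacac
Cd44: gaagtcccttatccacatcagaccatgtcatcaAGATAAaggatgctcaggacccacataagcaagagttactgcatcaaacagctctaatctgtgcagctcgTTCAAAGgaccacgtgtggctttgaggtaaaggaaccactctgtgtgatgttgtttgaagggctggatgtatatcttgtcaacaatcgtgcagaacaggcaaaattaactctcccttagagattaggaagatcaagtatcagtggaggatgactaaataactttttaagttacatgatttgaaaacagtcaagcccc
The Il7r window held the ROR string at 2 places, 1 on each strand, and the Il1r1, Il23r, Il17a and Myb windows held it at 1 place each. The Cd44 window held a TCF/LEF and a GATA match and no ROR match.

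For contrast, both of the next regions had at least 4 times the accessibility in iNKT2 as in iNKT1 cells of BALB/c mice and at most 0.25 times as accessible in SKG iNKT2 cells. The first was in an intron of Scfd2 (chr5:74476612-74476911) and the second 71974 bp downstream of the Tmem26 start (chr10:68795471-68795770). They were picked after their values were seen, as the most accessible intronic or intergenic regions of that set with the NFAT string.
Scfd2: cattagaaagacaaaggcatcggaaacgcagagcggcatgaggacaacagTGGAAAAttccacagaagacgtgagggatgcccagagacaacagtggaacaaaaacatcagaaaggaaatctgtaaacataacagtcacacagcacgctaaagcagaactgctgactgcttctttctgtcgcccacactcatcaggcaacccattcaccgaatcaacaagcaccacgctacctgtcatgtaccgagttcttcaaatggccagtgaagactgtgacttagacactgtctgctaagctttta
Tmem26: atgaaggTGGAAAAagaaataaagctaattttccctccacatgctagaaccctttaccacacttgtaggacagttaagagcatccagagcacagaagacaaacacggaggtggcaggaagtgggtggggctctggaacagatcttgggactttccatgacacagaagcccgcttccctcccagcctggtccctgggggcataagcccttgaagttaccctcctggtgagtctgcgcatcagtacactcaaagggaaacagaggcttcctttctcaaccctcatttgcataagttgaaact
The Scfd2 region fell from 40.9, 37.6 and 38.7 CPM in the BALB/c iNKT2 replicates to 4.75, 3.9 and 6.14 in the SKG iNKT2 replicates, whereas the Il1r1 region held 5.46, 10.7 and 10.2 and then 5.5, 10.1 and 12.

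Sequence was not used to choose the regions, and the ROR string was more frequent in kept than in all regions. It was found in the central 300 bases of 180 of the 1436 kept regions, or 12.5% (95% Wilson interval 10.9 to 14.3), against 3.02% of all regions. Of the 995 regions that were iNKT2-high in BALB/c and lost in SKG iNKT2 cells, 3.52% held it (2.54 to 4.85), and of the 3292 that fell between lost and kept, 4.83% did (4.15 to 5.62). Of the 2354 regions that were iNKT2-high in both genotypes, kept or not, 253 held it (10.7%, 9.56 to 12.1). These include the kept regions, which held 180 of the 253, so the string was not confined to kept regions. Regions are not replicates of a condition, so these shares are descriptions, with intervals that cover counting error only. The ROR string contains the core AGGTCA that many nuclear receptors bind. That core, searched after the data were seen, was in 25.8% of the kept, 15.1% of the lost and 16.6% of all regions. It was also in 20.9% of the regions that were iNKT1-high in both genotypes, and in 23.4% of the 2354 that were iNKT2-high in both, which include the kept ones.

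The NFAT string was more frequent in lost than in kept regions. It was in 5.22% of the kept regions (4.19 to 6.5), in 9.84% of those between lost and kept (8.87 to 10.9), in 16.7% of the lost regions (14.5 to 19.1) and in 6.55% of all regions. The AP-1 string TGANTCA was in 11% of the kept, 16.5% of the lost and 10.6% of all regions, and the Egr string GCGTGGG was in 2.51% of the kept, 5.43% of the lost and 3.68% of all regions. The NF-kB motif was in 5.78% of the kept, 4.22% of the lost and 4.73% of all regions.

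The TCF/LEF, GATA and Runx strings had higher shares than over all regions in both the kept and the lost sets. The TCF/LEF strings were in 29.9% of the kept, 25.5% of the lost and 12.9% of all regions. The GATA strings were in 46.2% of the kept, 47.2% of the lost and 36.2% of all regions. The Runx string TGTGGTT was in 20.1% of the kept regions (18.1 to 22.2), 15.3% of the lost (13.2 to 17.6) and 13.2% of all regions. In the 2670 regions that were iNKT1-high in both genotypes, TCF/LEF, GATA and Runx stood at 9.89%, 43.6% and 25.4%. High GATA and Runx shares were thus not particular to iNKT2-high regions. The T-box string AGGTGTG, bound by T-bet, was in 5.22% of the kept, 6.83% of the lost and 7.91% of all regions. It was in 19.6% of the same 2670 iNKT1-high regions.

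The other strings are given for the kept, lost and all regions in turn. The ETS string CAGGAAG was in 21.3%, 21.6% and 22.7%. The E-box CAGCTG was in 19.2%, 18.4% and 17.4%. The Maf string TGCTGAC was in 7.17%, 6.63% and 5.57%. The STAT5 string TTCNNNGAA was in 10.4%, 10.1% and 8.75%, and the CTCF string AGGNGGCAG in 4.18%, 2.21% and 5.55%. Both strands were searched and matches of different strings could overlap.

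**Figure D1:**
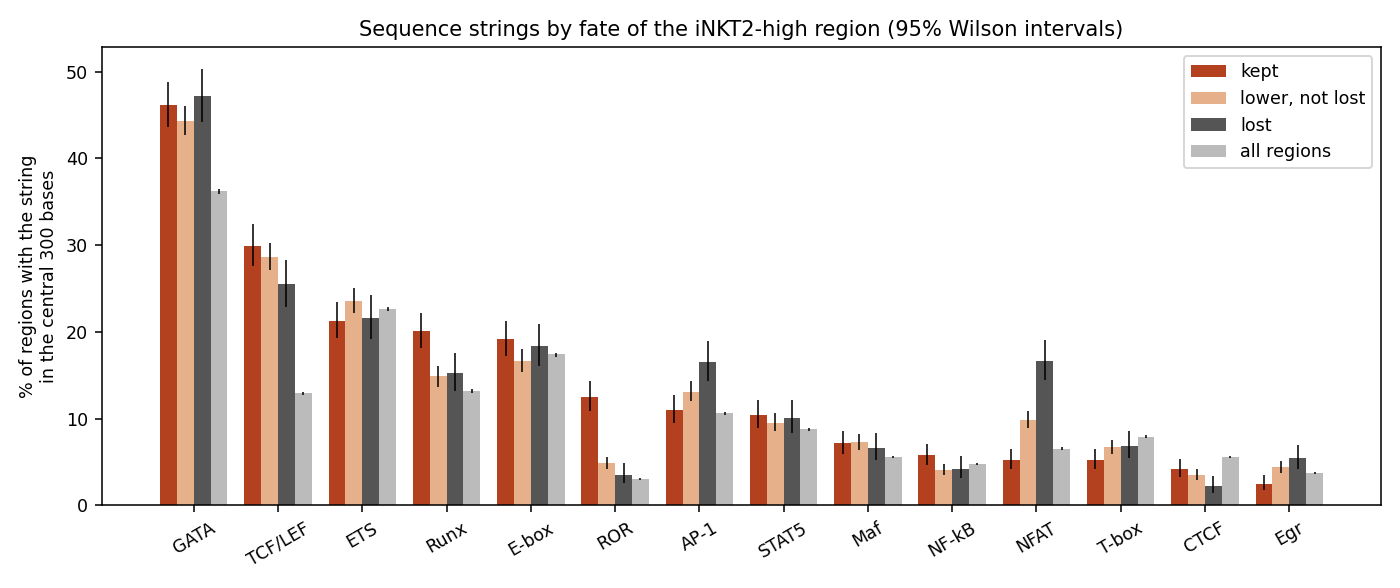
Share of regions, in percent, with each string in the central 300 bases, for kept regions, regions between lost and kept (ratio of SKG to BALB/c iNKT2 from 0.25 to 0.67), lost regions and all regions, with bars for 95% Wilson intervals. The ROR string stands at 12.5% in kept and 3.52% in lost regions, and the NFAT string at 5.22% and 16.7%. Regions that were iNKT2-high in both genotypes, with the ROR string in 10.7%, are not drawn.

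The ROR matches lay near the centre of the kept regions. Of 203 matches, 116 (57.1%) started within 50 bp of the centre, where an even spread over the window would put 33.7%, against 39.9% of the 2964 matches in all regions. NFAT matches in kept regions did not gather there, with 20 of 78 (25.6%), while 76 of 176 (43.2%) did in lost regions. A ROR and a TCF/LEF match stood together in 41 kept regions (2.86%), in 0.905% of the lost regions and in 0.449% of all regions. They did so in 2.51% of the regions that were iNKT2-high in both genotypes, which include the kept ones. Sorted into 4 equal groups by the smaller of their subset ratios, kept regions held the ROR string in 12.5%, 12.3%, 11.4% and 13.9%, from the lowest group to the highest, and the TCF/LEF strings in 27.3%, 27.6%, 30.4% and 34.5%.

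The levels that chose the regions were as follows. The median kept region held 0.344 CPM in BALB/c iNKT1, 0.321 in SKG iNKT1, 5.82 in BALB/c iNKT2 and 5.46 in SKG iNKT2 cells. The iNKT2 to iNKT1 ratio had a median of 6.28 in BALB/c and 6.06 in SKG mice, and reached 43.4 and 42.85. Together the kept regions took 0.0861% to 0.102% of the insertions in each iNKT1 library and 1.17% to 1.47% in each iNKT2 library. In all, 31 of them had no insertion in either BALB/c iNKT1 library and 76 had none in either SKG iNKT1 library. Over all 94823 regions these counts were 527 and 1111. The SKG iNKT1 libraries were shallower, with 17214764 and 17454220 insertions against 36342635 and 24735873 in BALB/c iNKT1.

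In 1432 of the 1436 kept regions every iNKT2 library stood above every iNKT1 library, against 23.1% of all regions. By edgeR's quasi-likelihood test over all regions, called at an adjusted p under 0.01 and a change of at least 4-fold, 1433 were higher in BALB/c iNKT2 than iNKT1 cells and 1434 in SKG iNKT2 than iNKT1 cells, where the background was 15.5% and 10.2%. The rule used both contrasts, so nothing is read from these counts.

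Within the iNKT2 cells the 2 genotypes overlapped in 1176 kept regions and did not in 260 (all regions without overlap: 38.6%). The SKG mean was the lower one in 855 (59.5%), and the median ratio was 0.942. The limits of 0.67 and 1.5 do not show that a region was equal: the 95% interval of the fitted genotype change lay inside them in 303 kept regions, reached below 0.67 in 727 and above 1.5 in 454. At an adjusted p under 0.01, with no limit on the fold, 2 kept regions differed between the iNKT2 genotypes by edgeR, against a background of 14.2%, and this contrast was also used by the rule. An intronic region of Chdh (chr14:30024311-30024790) held 28.0, 28.1 and 30.1 CPM in BALB/c and 40.9, 40.8 and 41.7 in SKG iNKT2 libraries. An intronic region of Rbm33 (chr5:28402755-28403208) held 30.8, 30.6 and 30.6 and then 18.7, 21.4 and 21.8. With same-numbered libraries taken as pairs the count was 44, against 25.2% of all regions, and it was 37 by limma with voom, against 13.4%.

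At the edges of the rule, the 2 kept regions closest to the BALB/c limit, near Dapp1 and Agbl1, had iNKT2 to iNKT1 ratios of 4.003 and 4.004, and the 2 closest outside, near Rexo2 and Ptprf, had 3.993 and 3.992. For SKG the ratios inside were 4.004 at Pkib and 4.006 near Ndst1, and outside it 3.999 near Umps, with Thrap3 between that and the limit. For the ratio of SKG to BALB/c iNKT2 the lowest kept values were 0.6717 near Myb and 0.6721 near Rdm1, with 0.6699 near Lrfn4 and 0.6694 near Insm1 outside. The highest kept values were 1.493 near Ranbp10 and 1.493 in Rora, with 1.501 near St6galnac2 and 1.502 near Zc3h12d outside.

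The largest differences between the subsets were at genes outside the lists of iNKT programmes. An intronic region of Rhobtb1 (chr10:69168242-69169458) held 0.239 and 0.617 CPM in BALB/c iNKT1 and 0.771 and 0.257 in SKG iNKT1 libraries. In iNKT2 it held 29.7, 46.3 and 43.3 in BALB/c and 34.9, 41.7 and 50.0 in SKG libraries, so that every iNKT2 library was far above every iNKT1 library and the genotypes overlapped. A region at the start of a Nav2 transcript, from a neuron navigator gene (chr7:49364374-49365106), held 0.513 to 0.687 in the 4 iNKT1 libraries, 32.5, 45.0 and 43.2 in BALB/c iNKT2 and 27.3, 38.0 and 38.6 in SKG iNKT2 libraries. The other 4 of the 6 kept regions with the largest subset ratios were an intronic region of Eif4e3, which encodes a cap-binding translation factor, an intronic region of Tsg101, which encodes a component of the endosomal sorting machinery, and regions near Gypc and Krr1. Their iNKT2 to iNKT1 ratios were 33.5 to 36.6 in BALB/c and 33.8 to 42.8 in SKG mice.

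Kept regions were mostly away from gene starts. Only 66 of them (4.6%, 3.63 to 5.81) held a protein-coding start, against 14.9% of all regions and 4.22% of the lost regions. Introns held 684 (47.6%), intergenic stretches 569 (39.6%), and exons and UTRs the rest. The median distance to the nearest coding start was 32931 bp, against 16527 bp over all regions and 61913 bp over the lost regions, and 19.2% were over 100 kb away. The median GC content of the window was 46.3% in kept, 46.0% in lost and 49.0% in all regions. Among kept regions at a start the most accessible in iNKT2, beside Nav2, were at Rhobtb1 with the neighbouring A930033H14Rik, at Mical3, at Pou2af1, which encodes the coactivator OCA-B, and at Pkib, a protein kinase A inhibitor. The Pou2af1 start (chr9:51213406-51214226) held 1.41 to 2.54 CPM in the iNKT1 libraries, 35.2, 37.7 and 34.4 in BALB/c iNKT2 and 35.1, 23.6 and 34.3 in SKG iNKT2 libraries.

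Some kept regions lay close together. When those within 25 kb of each other were joined, 929 stood alone and 507 fell into 203 groups, of which 21 held 4 or more. The largest were 2 groups of 7 on chromosome 14, over Il17rb and Chdh (29944 bp) and over Cacna1d (42889 bp), a group of 7 in Fam83a within 5507 bp on chromosome 15, and a group of 7 at Mtss1 over 49124 bp of the same chromosome. Il17rb encodes the receptor of IL-25, which marks iNKT2 and iNKT17 cells, Chdh a choline dehydrogenase, Cacna1d a calcium channel subunit and Mtss1 a protein of the actin skeleton.

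Counting every region in a gene body or nearest to its start, 1100 genes had a kept region, and Chdh had the most with 11 of its 21 regions. Mtss1 had 9 of 25, Cacna1d 8 of 38 and Fam83a 7 of 12. A further 9 genes had 6 each: Emb, Ext1, Frmd4a, Gm17509, Il1r1, Lmo4, Mboat1, Pld1 and Tgfbr3. At these 13 genes 1 region in all was lost, at Ext1, where 1.05% of all regions were lost. The genes were picked for their kept regions, so nothing is read from that count. At Emb edgeR called 2 regions lower in SKG iNKT2, and at Cacna1d, Ext1, Il1r1, Mboat1 and Tgfbr3 1 each. It called none lower at the others of the 13, and over all regions that share was 4.73%. A gene body shared by 2 genes gives the same regions to both, as at Emb and Gm17509. A region in the body of 1 gene can also be nearest to the start of another. The group of 7 over Cacna1d had Chdh as its nearest start, so the counts of Chdh and Cacna1d share regions. At Chdh the kept regions ranged from 1.84 to 28.7 CPM in BALB/c iNKT2 and from 1.96 to 41.1 in SKG iNKT2 means. The Mtss1 start (chr15:59081887-59082550) was itself a kept region, with 1.35 to 2.93 in the iNKT1 libraries, 19.1, 22.7 and 24.3 in BALB/c iNKT2 and 24.8, 30.1 and 27.6 in SKG iNKT2 libraries.

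By gene list, the iNKT17 programme held the largest share of kept regions, 14 of its 131 regions (10.7%), from 6 of its 11 genes. The lists were chosen with results of these data known, and the share is a description to set beside 1.51% over all regions. The list was also rich in iNKT2-high regions: 39 of the 131 were iNKT2-high in BALB/c, against 6.99% of all regions. Of those 39, 14 were kept, beside 12 of 30 on the cytokine receptor list and 1436 of 6626 over all regions. At Il17a 2 of 9 were kept. Among the 14 were regions at Il23r (5), Rora (2), Il17a (2), Sdc1 (2) and Il17re (2). None were at Il17f, Blk, Serpinb1a, Aqp3 or Ltb4r1, and Aqp3 and Ltb4r1 had no iNKT2-high region in BALB/c that could be kept. The rule left out 117 other regions at the genes of the list. Of these, edgeR called 45 (38.5%) higher in BALB/c iNKT2 than iNKT1 and 34 (29.1%) higher in SKG iNKT2 than iNKT1. Over all non-members these shares were 14.2% and 8.80%. The regions of the list summed, without the kept ones, to 506.4 to 523.3 CPM in BALB/c iNKT1, 594.7 to 657.2 in SKG iNKT1, 612.9 to 635.9 in BALB/c iNKT2 and 746 to 770.4 in SKG iNKT2 libraries. iNKT17 cells were not sorted, and what part any of them had in these values was not tested.

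**Figure D2:**
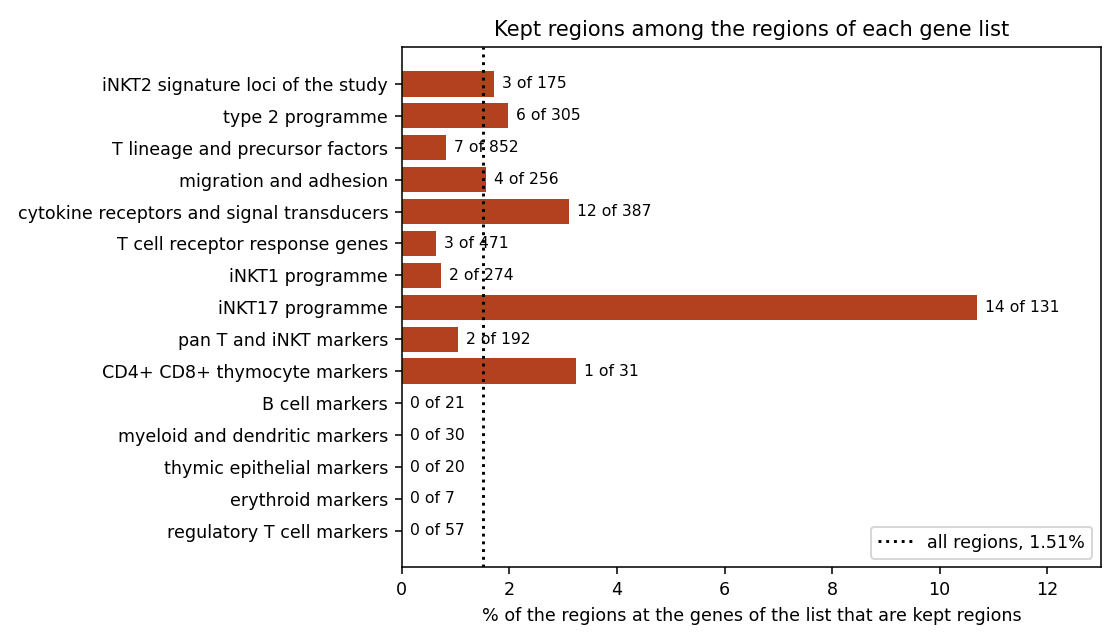
Share, in percent, of the regions at the genes of each list that were kept regions, with the counts beside the bars and a dotted line at the share over all regions (1.51%). The iNKT17 programme stands at 10.7%, with cytokine receptors at 3.10% and the T cell receptor response genes at 0.637%.

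Il23r encodes the receptor chain through which IL-23 sustains IL-17 producing cells. Its 5 kept regions ran from the start to an intronic region 16070 bp downstream. The region whose sequence is shown above (chr6:67483018-67483502) held 0.0597 and 0.132 CPM in BALB/c iNKT1 and 0.193 and 0.192 in SKG iNKT1 libraries. In iNKT2 it held 9.16, 10.2 and 9.61 in BALB/c and 5.38, 8.68 and 8.43 in SKG libraries, with all 3 SKG values under the lowest BALB/c one. The most accessible Il23r region (chr6:67475559-67476011) held 10.1, 13.4 and 12.2 in BALB/c iNKT2 and 5.47, 15.1 and 8.09 in SKG iNKT2 libraries, so that the genotypes overlapped. The start region (chr6:67491714-67492072) held 2.76, 4.39 and 5.57 in BALB/c and 3.33, 4.32 and 3.1 in SKG iNKT2, and 0.0641 to 0.321 in the iNKT1 libraries. All 5 had a lower mean in SKG than in BALB/c iNKT2, with ratios of 0.774 to 0.861.

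Il1r1, the signalling receptor of IL-1, which drives IL-17 production with IL-23, was on the list of cytokine receptors. It had 6 kept regions from 14301 bp upstream to 37704 bp downstream of its start. The region shown above (chr1:40243391-40243896) held 0.0597 and 0 in BALB/c iNKT1 and 0 and 0.0641 in SKG iNKT1 libraries, against 5.46 to 12 in the 6 iNKT2 libraries, where the genotypes overlapped. The start (chr1:40224849-40225223) held 5.21, 6.56 and 7.21 in BALB/c and 6, 4.59 and 4.72 in SKG iNKT2, and at most 0.0642 in iNKT1. Of the 26 regions at Il1r1, 18 were iNKT2-high in BALB/c, none was lost and 1 was called lower in SKG iNKT2 (all regions: 4.73%). Levels of its other regions were not all alike in the genotypes: next to the kept region 14301 bp upstream, which had means of 5.34 ± 1.42 (SD, n = 3) in BALB/c and 3.9 ± 0.644 (n = 3) in SKG iNKT2, a region left out by the rule had 3.6 ± 0.871 and 1.36 ± 0.454. A downstream start (chr1:40266394-40266752), which was not a kept region, was called higher in iNKT2 in both genotypes, by log2 2.41 ± 0.34 (SE, edgeR adjusted p = 2.1e-05) in BALB/c and 2.54 ± 0.392 (adjusted p = 6.8e-05) in SKG mice. Of the 20 kept regions at Il1r1 and the iNKT17 genes, 6 held the ROR string, 9 a TCF/LEF string, 8 a GATA string and 2 the NFAT string.

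**Figure D3:**
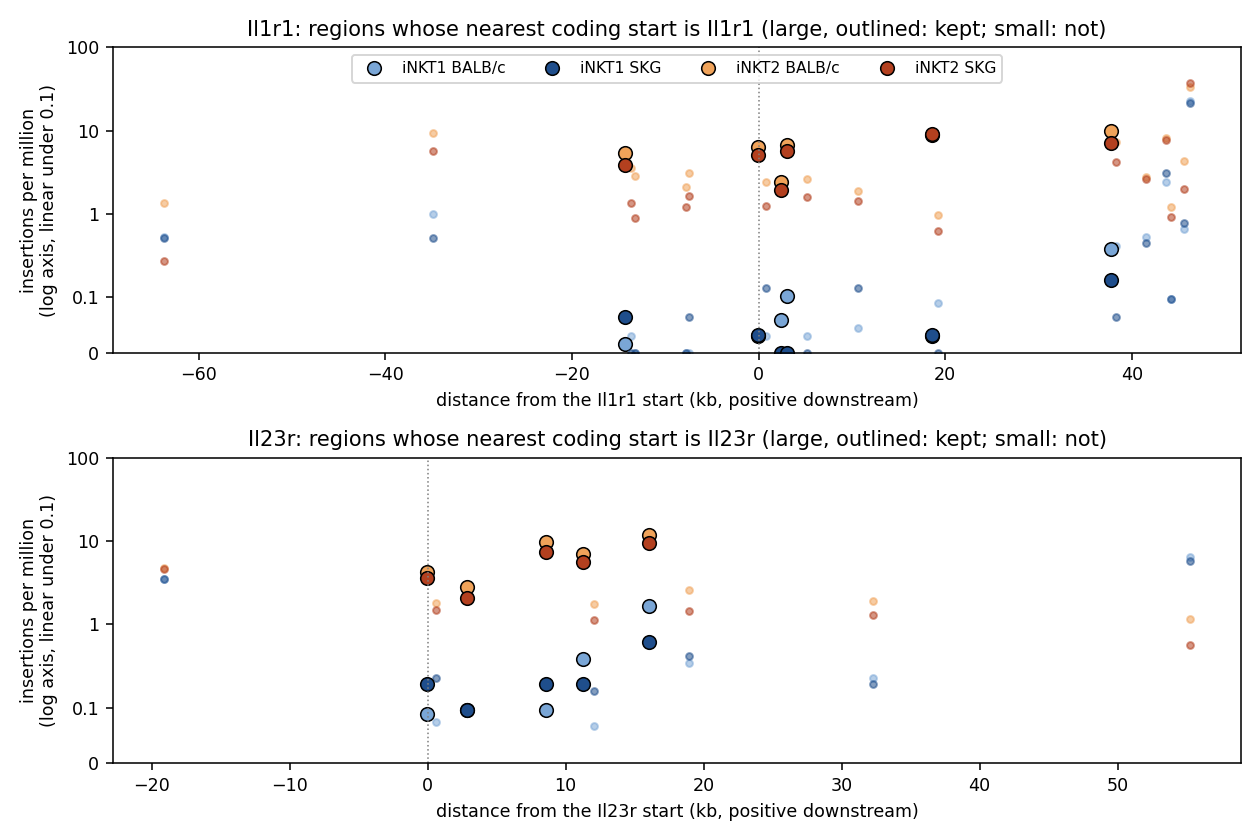
Group means of CPM (vertical, log axis that is linear under 0.1) of the regions whose nearest coding start is Il1r1 (top) or Il23r (bottom), by distance from that start in kb, with no error bars. Large outlined points are kept regions, whose iNKT2 means of the 2 genotypes lie close together and far above both iNKT1 means. Small points are the other regions.

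Il17a and Il17f encode the effector cytokines of iNKT17 cells. The kept region 29051 bp downstream of the Il17a start held 4.49, 4.66 and 4.45 in BALB/c iNKT2 and 2.67, 3.63 and 3.24 in SKG iNKT2 libraries, and 0 to 0.128 in the iNKT1 libraries. A second one lay 44806 bp upstream. The Il17a start between them (chr1:20730551-20730951) was not kept. It held 4.49, 5.71 and 6.18 in BALB/c iNKT2 but 0.624, 1.1 and 1.75 in SKG iNKT2 libraries, and edgeR called it lower in SKG, with a log2 change of -2.32 ± 0.352 (SE, adjusted p = 2.1e-04). Without the first SKG iNKT2 replicate that change was -1.96, just under 4-fold. The Il17f region that holds a start 6250 bp downstream of the main one had 5.8, 8.68 and 6.31 in BALB/c and 3.33, 4.32 and 3.24 in SKG iNKT2, a log2 change of -0.93 ± 0.219 (adjusted p = 5.5e-03) that was over 0.01 without any one of 3 iNKT2 libraries, at most 3.5e-02. It was in neither the kept nor the lost set.

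Rora encodes the nuclear receptor RORa. An intronic region of Rora (chr9:69227178-69227620) held 5.08, 7.49 and 6.1 in BALB/c and 11.4, 7.35 and 9.84 in SKG iNKT2, near the upper limit of the rule at 1.49.

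At genes of the type 2 programme 6 of 305 regions were kept (1.97%), at Il5, Maf, Irf4 (2), Icos and Ccr4. Il5 encodes a type 2 cytokine that recruits eosinophils, and a region 909 bp upstream of its start (chr11:53719708-53720063) held 4.8, 4.63 and 5.24 in BALB/c and 6.75, 6.61 and 8.16 in SKG iNKT2, with every SKG library above every BALB/c one, and 0 to 0.385 in iNKT1. Irf4 encodes a factor that T cell receptor signals induce, and its region 6619 bp upstream of the start (chr13:30742271-30742943) held 3.47 to 5.26 in iNKT1, 28, 25.9 and 17.6 in BALB/c iNKT2 and 32.2, 24.7 and 28.7 in SKG iNKT2. At Icos, a costimulatory receptor, the region 24197 bp downstream held 17.2, 19 and 18.2 in BALB/c and 10, 14.2 and 14.2 in SKG iNKT2. Maf and Ccr4 had ratios of 0.728 and 0.725 between the iNKT2 genotypes. None of the regions at Il4, Il13 or Gata3 reached the 4-fold limit of the rule in BALB/c, so none could be kept.

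Of the iNKT2 loci that the study points to, Il17rb, Il6ra and Ccr7 had 1 kept region each. Zbtb16, which encodes PLZF, had none of 114, of which 7 were iNKT2-high in BALB/c and 0 were lost. At Zbtb16 1 region was called lower in SKG iNKT2, a call that 4.73% of all regions had. The study reports that the SKG mutation left accessibility at Zbtb16 undisturbed. Slamf6 had none of 10, and as 0 of these were iNKT2-high in BALB/c, none could be kept. The Ccr7 region, 15957 bp upstream of the start of this homing receptor (chr11:99170818-99171250), held 11.7, 11.6 and 7.42 in BALB/c and 14.9, 7.26 and 10.8 in SKG iNKT2, and 0 to 0.329 in iNKT1. The Ccr7 start was not kept and was more accessible in SKG iNKT2, with 47.5, 35.1 and 39.7 against 26, 24.2 and 19.4, a log2 change of 0.81 ± 0.168 (edgeR adjusted p = 2.3e-03). That p rose to at most 2.3e-02 when a library was left out. The chemokine receptor Ccr6, typical of IL-17 producing cells, likewise had a kept region 29280 bp upstream, with a ratio of 0.756, and a start at 1.07, 1.08 and 0.66 in BALB/c and 2.38, 3.03 and 2.76 in SKG iNKT2.

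Among the receptors and signal transducers, 12 of 387 regions were kept (3.10%). Beside Il1r1 they were at Il7r, Ifngr1, Ifngr2 (2), Tgfbr2 and Stat5b. The Il7r region with 2 ROR matches, at the gene of the IL-7 receptor chain, held 1.63, 3.47 and 3.09 in BALB/c and 3.36, 5.01 and 4.52 in SKG iNKT2 libraries, and 0.176 to 0.299 in iNKT1. Of 256 regions of the migration and adhesion list 4 were kept (1.56%), at Ccr6, Ccr2, Itga4 and Cd44. The Cd44 region held 10.7, 19.5 and 14.1 in BALB/c, 13.8, 10.6 and 13.8 in SKG iNKT2, and 0.257 to 0.578 in iNKT1 libraries.

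Factors of the T lineage held fewer, 7 of 852 regions (0.822%), at Bach2 (2), Satb1, Tcf12, Myb, Foxp1 and Runx1. The Myb region held 7.75, 9.47 and 8.53 in BALB/c and 5.59, 4.41 and 6.81 in SKG iNKT2, without overlap, and 0.119 to 0.257 in iNKT1. The Tcf12 region (chr9:71874099-71874798), at the gene of the E protein HEB, held 12.9, 14.8 and 13 in BALB/c and 17.5, 13.1 and 12.5 in SKG iNKT2, against 1.94 to 2.44 in iNKT1.

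Genes that respond to T cell receptor signals had 3 kept regions of 471 (0.637%), at Nr4a1 and Nfkbia (2), and iNKT1 genes had 2 of 274 (0.730%), at Ifng and Xcl1. The Nr4a1 region, 3692 bp upstream of the start of this immediate early gene (chr15:101250229-101250925), held 11.7, 13.4 and 11.5 in BALB/c and 15.2, 6.38 and 9.17 in SKG iNKT2 libraries, with 0.45 to 1.41 in iNKT1. Ifng encodes the cytokine typical of iNKT1 cells, yet a region 40624 bp downstream of its start (chr10:118481516-118481825) held 1.15 to 2.31 in iNKT1 and 6.9, 10.7 and 10 in BALB/c and 13.4, 11.9 and 13.7 in SKG iNKT2 libraries. The markers of B cells, myeloid cells, thymic epithelium, erythroid cells and regulatory T cells had no kept region among 21, 30, 20, 7 and 57. Only 0, 1, 0, 0 and 2 of these were iNKT2-high in BALB/c and so could be kept. Those of CD4+ CD8+ thymocytes had 1 of 31, at Dntt, and the pan T cell list 2 of 192, at Cd247 and Thy1.

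**Figure D4:**
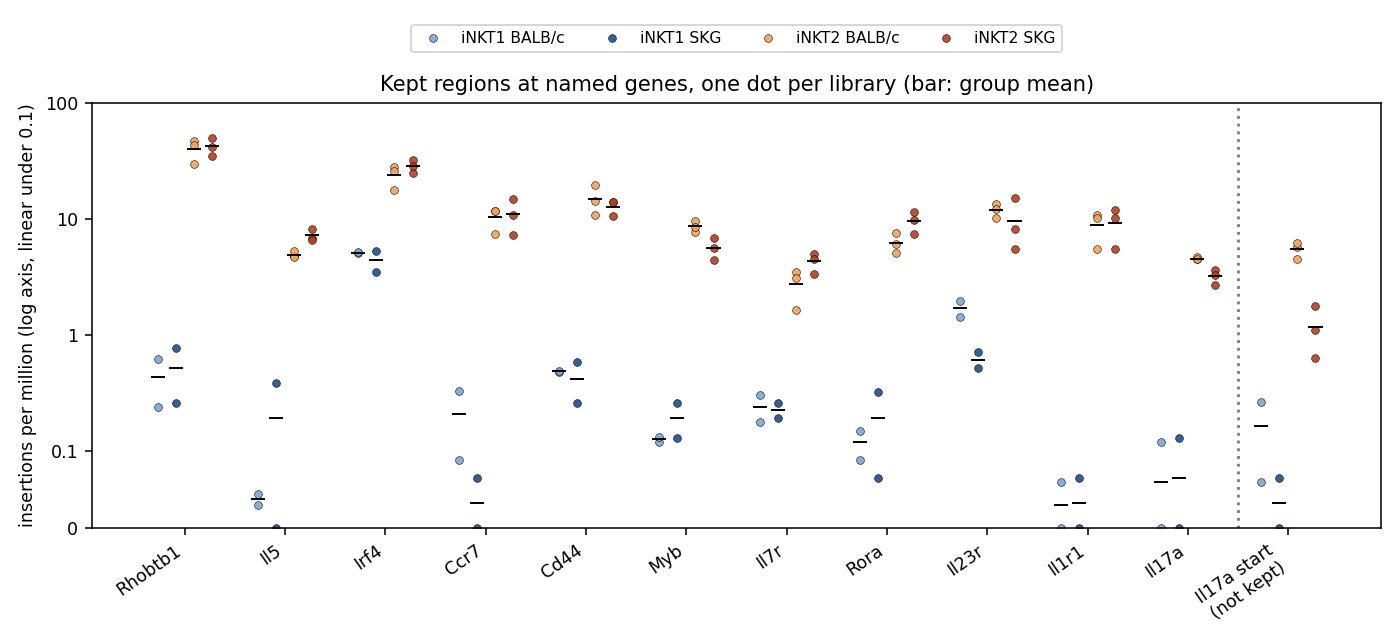
CPM (log axis, linear under 0.1) in each of the 10 libraries, 1 dot per library, with a bar at the group mean, for the kept regions described at 11 genes, and to the right of the dotted line the Il17a start, which was not kept. In the 11 kept regions, chosen for this gap, both iNKT2 groups lie above all iNKT1 libraries. The 2 iNKT2 groups overlap except at Il5, Myb and Il17a. At the Il17a start the SKG iNKT2 libraries lie at 0.624 to 1.75, below the BALB/c ones at 4.49 to 6.18.

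Regions beside the kept ones, which the rule left out, were in part called higher in iNKT2 too, though most did not pass that call. Of 2933 regions within 10 kb of a kept region, edgeR called 1011 (34.5%) higher in BALB/c iNKT2 than iNKT1 cells, against the 14.2% of all non-members, and 900 (30.7%) higher in SKG iNKT2 than iNKT1 cells, against 8.80%. In the opposite direction, 56 and 53 were called. Their median log2 changes were 1.14 and 1.20, against 0.01 and 0.10 over the other non-members. Between the genotypes, 53 (1.81%) were called lower in SKG iNKT2, against 4.81% of non-members. Neighbours include regions that just missed a limit, and they share libraries and local chromatin with the kept region, so they are not independent of it. Within 5 kb the shares were 42.0%, 38.1% and 1.19%, and within 25 kb 26.5%, 22.6% and 2.29%.

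At genes with at least 3 kept regions there were 92 start regions that were not kept themselves. edgeR called 16 of them (17.4%) higher in BALB/c iNKT2 than iNKT1, against 3.53% of all such starts, and 13 (14.1%) higher in SKG iNKT2 than iNKT1, against 2.93%. None was called between the genotypes in either subset at this threshold, where 0.849% of all such starts were called lower in SKG iNKT2 and 0.171% lower in SKG iNKT1. The Pld1 start fell in SKG iNKT2 from 2.67, 2.17 and 3.22 to 0.862, 0.827 and 1.01, by -1.58 ± 0.276 on the log2 scale (adjusted p = 6.7e-04), which is under 4-fold. Pld1 encodes a phospholipase D. The Dpp4 start, named after its values were seen, was called in BALB/c, with 25.7, 37.1 and 36.3 in iNKT2 and 7.83 and 6.52 in iNKT1 (log2 2.20 ± 0.241, adjusted p = 1.8e-06). In SKG mice it held 28.7, 43.4 and 43.2 in iNKT2 and 10.4 and 16.1 in iNKT1 (1.53 ± 0.236, adjusted p = 6.5e-05), which is under 4-fold, and the SKG change minus the BALB/c change, -0.66 ± 0.322, did not pass edgeR's test of that difference (adjusted p = 2.7e-01). Dpp4 encodes the surface peptidase CD26. At Chdh the start changed by 1.08 ± 0.174 in BALB/c and 1.44 ± 0.184 in SKG mice, below 4-fold, and at Cacna1d it did not pass the test, at -0.04 ± 0.219 and 0.50 ± 0.235.

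In iNKT1 cells, where the kept regions were nearly closed, 14 were called between SKG and BALB/c by edgeR (background 1.01% of all regions). Of these, 5 (0.348% of the kept regions) were higher and 9 (0.627%) lower in SKG. Over all regions the shares were 0.281% and 0.732%, so the kept regions were near the background. The iNKT1 means are the denominators of the rule, and the count is a description. It fell to 2 to 5 without any one of the 4 iNKT1 libraries, where 0.298% to 0.487% of all regions were called. It was 9 without the second and 8 without the third BALB/c iNKT2 replicate, against 0.851% and 0.811% of all regions. By limma with voom it was 0, against 0.282% of all regions. There 85 of the 1436 had an unadjusted p under 0.05. No share over all regions was counted for that limit, so nothing is read from the 85. DESeq2 called 14, against 1.2% of all regions. One was an intronic region of Emb (chr13:117242032-117243044), which encodes the cell surface protein embigin. It held 1.4 and 1.41 in BALB/c and 5.2 and 6.09 in SKG iNKT1 libraries, a log2 change of 2.00 ± 0.245 (adjusted p = 2.2e-04), and 29.9 to 54.3 in iNKT2. The change lay between 1.88 and 2.11 when a library was left out, on both sides of the 4-fold limit, and the call was lost without the second SKG iNKT1 replicate, with the replicate block, with library totals and by limma with voom. An intronic region of Pex16, a peroxin (chr2:92379650-92380244), held 4.21 and 4.54 in BALB/c and 0.514 and 1.03 in SKG iNKT1 (-2.50 ± 0.298, adjusted p = 1.8e-04), and 18.9 to 25.2 in the iNKT2 libraries.

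The other 12 were at or near Stk3, Lmo4, Nup210l and Gtf3c3, which were higher in SKG iNKT1, and Tgfbr2, Whrn, Msra, Kcnrg, Cep192, Itpk1, Bend4 and Serp2, which were lower. The Tgfbr2 region (chr9:116091101-116091838), in an intron of a receptor of TGF-beta, held 2.57 and 3.66 in BALB/c and 0.385 and 1.09 in SKG iNKT1, and its call was lost without any one iNKT1 library. At Stk3 no insertion was found in BALB/c iNKT1 and at Serp2 none in SKG iNKT1, so no fold is given for them. The change with genotype differed between the subsets, by edgeR's test of that difference at the same threshold, in 4 of the 1436 kept regions. That share is below the background of 0.529% of all regions.

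**Figure D5:**
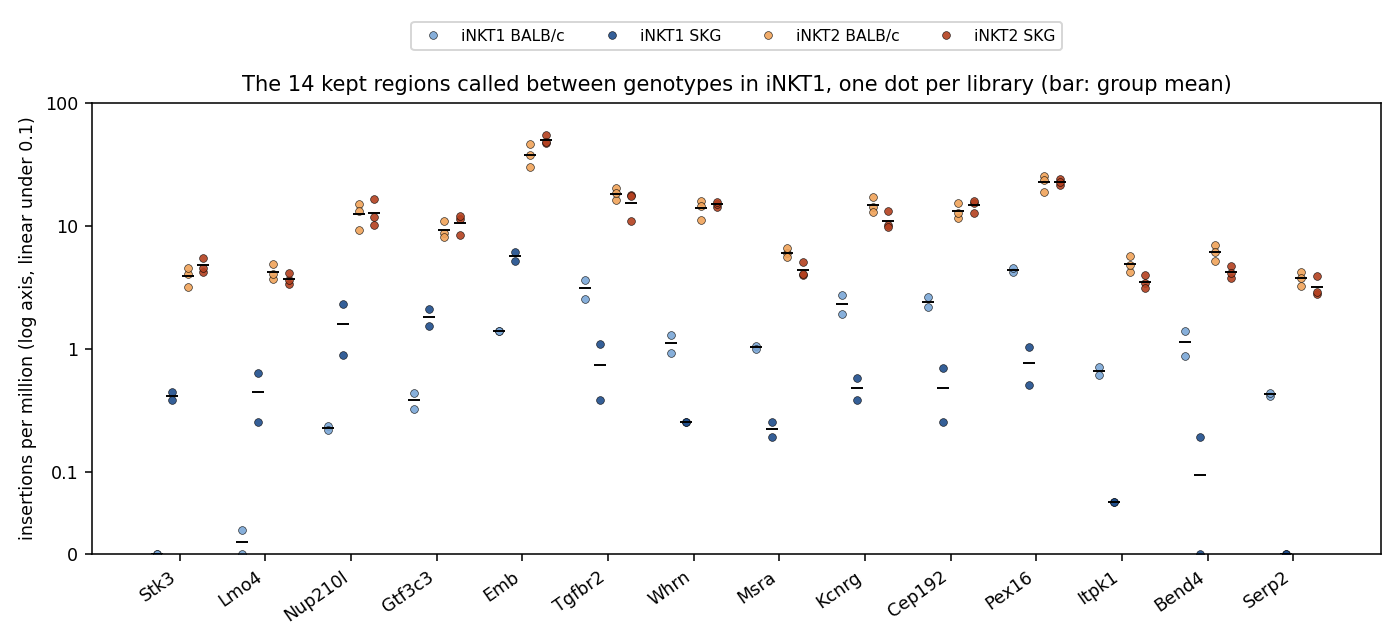
CPM (log axis, linear under 0.1) in each library, 1 dot per library, with a bar at the group mean, for the 14 kept regions called between the genotypes in iNKT1 cells. From Stk3 to Emb the SKG iNKT1 libraries lie above the BALB/c ones, from Tgfbr2 to Serp2 below, and the iNKT2 libraries of both genotypes lie above all of them.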

How the data were processed

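Insertion counts per region were deposited by the authors as whole numbers for 10 ATAC-seq libraries. Despite the table's name they were not normalized. By the study's methods and the submitters' processing notes, reads were mapped to mm10 with Bowtie 1.0, unmapped reads were trimmed with Trim Galore and mapped again, and the alignments were freed of duplicates with Picard, and MACS2 summits, called on short fragments of each replicate, were widened and merged into 1 set, in which transposase insertions were counted. Many deposited regions are narrower than the width the methods state. All 10 count columns were used.

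Counts were scaled to CPM with TMM factors from edgeR 4.0.16 (R 4.3.3). All 94823 regions entered edgeR's quasi-likelihood fit with 1 mean per group, and Benjamini-Hochberg adjustment was over all of them. A call needs an adjusted p under 0.01 and at least 4-fold, the thresholds of the study, which used voom and limma (limma 3.58.1 and DESeq2 1.42.0 are alternatives here). The fit was tested on simulated data. Starts, exons and introns are from GENCODE M21, and sequences from RefSeq's GRCm38.p6. A region belongs to a gene whose body it overlaps or whose start is nearest, within 100 kb. Wilson intervals are from scipy 1.17.1. The kept regions, gene lists and strings were chosen with earlier results of these data known. Genes named are the 6 kept regions with the largest subset ratios, the most accessible kept region of each listed gene, the genes with the most kept regions and their starts, and the 5 most accessible kept starts. Other genes named were chosen after their values were seen. Some results are not reported here.

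Same-numbered iNKT2 libraries of the 2 genotypes deviated together (r = 0.517, 0.181 and 0.224 across regions), although BALB/c replicate 3 correlated more with SKG replicate 2 (r = 0.308). In iNKT1 same-numbered libraries did not (r = -0.00937). The main fit used no pairs. An alternative, the replicate block, took same-numbered libraries as pairs in both subsets. Alternatives were library totals, DESeq2 size factors, quantile normalization, other added values, a filter on low counts, pairing, and leaving out each library.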

Additional observations from a re-analysis of the deposited data

Results flagged for a closer look

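In 4 kept regions the change from BALB/c to SKG differed between iNKT2 and iNKT1 cells by edgeR's test of that difference. This is a smaller share of the 1436 kept regions than the 0.529% over all regions. The signed log2 change in iNKT2 minus that in iNKT1 was 2.51 at Pex16 (SE 0.342, adjusted p = 1.4e-03), 2.35 at Specc1l (SE 0.32, adjusted p = 1.4e-03), 2.48 at Cep192 (SE 0.425, adjusted p = 5.4e-03) and 2.14 at Osbpl9 (SE 0.407, adjusted p = 9.6e-03). In each the iNKT1 level was lower in SKG than in BALB/c: at Specc1l (chr10:75222516-75223042) the libraries held 3.64 and 3.57 in BALB/c iNKT1, 0.707 and 1.35 in SKG iNKT1, 22.3, 28.5 and 27.7 in BALB/c iNKT2 and 35, 37.2 and 42.1 in SKG iNKT2. The rule holds the iNKT2 change near 0, so these differences mostly restate the iNKT1 change. No call held under every alternative: of 16 alternatives, 13 kept it at Pex16, 12 at Specc1l, 7 at Cep192 and 5 at Osbpl9, and leaving out libraries raised the adjusted p to at most 2.4e-02, 2.3e-02, 5.8e-02 and 5.9e-02.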

How the results depend on the processing

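The number of kept regions depends most on the value added to the group means: 2946 with 0.1, 732 with 1 and 292 with 2, of which 1377, 706 and 273 were among the 1436. With 2 added, the ROR string was in 8.22% and the NFAT string in 4.79% of them, and 3 of 131 iNKT17 regions were left. Leaving out a library gave 1391 to 1521.

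Kept regions called in SKG iNKT1 against BALB/c iNKT1 numbered 2 to 19 without a library, where 0.298% to 1.27% of all regions were called. They numbered 19 with the replicate block, against 1.52%, and 0 by limma with voom, against 0.282%. By limma 85 had an unadjusted p under 0.05, with no share over all regions counted beside it. Kept regions with an adjusted p under 0.01 between the iNKT2 genotypes numbered 44 with the replicate block, against 25.2% of all regions. With library totals they numbered 5, with DESeq2 size factors 4 and by DESeq2 7, against 12.7%, 13.9% and 16%. By limma with voom they numbered 37, against 13.4%, and without a library 0 to 9, against 9.12% to 15.1%. Neighbours called higher in BALB/c iNKT2 numbered 567 with the filter, which tests fewer regions, and 610 by limma with voom, where 6.96% and 8.17% of non-members were called (877 to 1052 without a library). In SKG iNKT2 they numbered 555 and 391, against 5.74% and 3.11% (634 to 908). Neighbours called lower in SKG iNKT2 numbered 25 with the filter, against 2.17%, 61 with the block and 38 to 71 without a library. The pairing block, which joins the genotypes of 1 subset, was run for the genotype contrasts only. The causes were not tested.

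Within 5 kb the 3 neighbour shares were 42.0%, 38.1% and 1.19%, and within 25 kb the first 2 were 26.5% and 22.6%. Starts within 1 kb gave 9.54% and starts of all gene types 5.85%. Searching whole regions gave 56.8% for GATA, 34.4% for TCF/LEF, 7.59% for NF-kB, 3.48% for Egr, 8.50% for NFAT, 14.6% for AP-1, 7.24% for T-box, 23.5% for Runx, 25.3% for ETS, 24.6% for E-box, 9.40% for Maf, 14.4% for STAT5 and 5.57% for CTCF. The core AGGTCA alone, added after the data were seen, gave 25.8%, and leaving out regions at starts, also added then, kept every share inside its interval. A limit of 0.5 for lost regions gave 3185, with 4.21% for ROR and 12.6% for NFAT.

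Most kept regions held few insertions in iNKT1, so a genotype change there rests on few insertions, and 2 iNKT1 libraries a group limit its error.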
